A study of Mus musculus with 9 samples.

Results

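Cell-type splicing regulators were followed here from the embryonic to the mature pituitary gland of the mouse. They are 10 genes taken by name out of the 55450 genes in the count tables. Of these, 6 encode neuronal-type regulators (Rbfox1, Rbfox3, Nova1, Nova2, Srrm4 and Celf4), 2 encode epithelial-type regulators (Esrp1 and Esrp2) and 2 encode broadly expressed ones (Rbfox2 and Ptbp1). RNA was sequenced from Rathke's pouch, the primordium of the anterior pituitary, of 7 individual e13.5 embryos, together with the gland of 2 adult mice at postnatal week 8 after removal of the posterior lobe. All animals were of a mixed 129Sv/c57BL6J background, the embryos carried a Sox2Egfp/+ reporter allele, and both sexes were present at each stage, although the sex of each library is not given in the sources used here. The comparison addressed how gene expression differs between the developing and the mature gland.

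A splicing regulator binds short motifs in a pre-mRNA and promotes or blocks the use of nearby exons, so that one gene yields different proteins in different cell types. Neurons and endocrine cells share regulated exocytosis and electrical excitability, and neuronal-type regulators such as Srrm4 and the Nova and Rbfox proteins act on exons of genes for synapses, ion channels and the cytoskeleton. The Esrp proteins maintain epithelial exon choices, for example in Fgfr2, whereas Ptbp1 represses neuronal exons in many non-neuronal cells. The values below are counts per gene, which do not show which exons were used.

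Each library was one animal, so the p-values rest on the spread between animals, with 2 animals only on the adult side. Read pairs counted on genes numbered 16738863 to 28537311 in the embryos, against 36421545 and 31191117 in the adults. A count of 3, the upper limit that a count of 0 allows, corresponded to 0.0963 to 0.220 CPM (normalised counts per 1e6) in the embryos, and to 0.0727 and 0.0843 CPM in the adults. This limit covers counting error only. CPM here are scaled for library composition, and all 10 genes lay well above the limit in all 9 libraries. The smallest count of any of them was 28, for Srrm4 in embryo 6.

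Pituitary markers were found at both stages, beside markers of other tissues that are given further below. Of 15 pituitary markers, 7 were called higher in the adult (14.6% of all genes tested) and 3 in the embryo (11.3%), where a call needed a Benjamini–Hochberg adjusted p below 0.05 and a fold change above 4 in the edgeR quasi-likelihood test. Their summed level ran from 1609 to 2900 CPM over the embryos, with a median of 2326 CPM, and reached 153089 and 160539 CPM in the adults, and none of the 15 was at 0 throughout a stage. The most abundant, per length, was Cga in the embryos and Gh in the adults. Gh, the growth hormone gene, was at 0.0362 to 1.90 CPM in the embryos and at 53470 and 63848 CPM in the adults. Hesx1, an early transcription factor of the pouch, was at 11 to 40.4 CPM in the embryos and at 0.339 and 0.562 CPM in the adults.

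Embryos 1 and 4 stood apart from the other embryos. Genes received only 59.7% and 62.8% of their read pairs, while this share was 73.9% to 80.0% for the remaining 5. The summed level of 7 erythroid genes, which was led by the embryonic globin Hbb-y, reached 169309 CPM in embryo 1 and 212275 CPM in embryo 4. It ran from 6067 to 18878 CPM in the other embryos and was 763 and 1977 CPM in the adults. Of the 7 genes, 6 were called higher in the embryo (11.3% of all genes tested), and 4 without embryos 1 and 4 (11.5%). After the correction for exon length and GC content described below, 2 were called (9.18%). Results are therefore given with and without these libraries, and the part of blood RNA in them was not tested. Embryo 2 differed in another way, with the lowest summed level of the epithelial programme of any embryo (571 CPM) and the highest of endothelial (322 CPM), mesenchymal (2767 CPM), neuron (499 CPM) and neural progenitor (275 CPM) markers.

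Of the 6 neuronal-type regulators, 4 were called higher in the adult (Srrm4, Nova2, Celf4 and Rbfox3), where 14.6% of the 19371 genes tested received that call. None was called higher in the embryo, by edgeR or DESeq2 or at an unadjusted p below 0.05. Of the 2 epithelial-type regulators, Esrp2 was called higher in the embryo, a call that 11.3% of all genes tested received, and Esrp1 was not called. Neither broadly expressed regulator was called by edgeR or DESeq2. At an adjusted p below 0.05 alone, all 6 neuronal-type genes were higher in the adult (27.4% of all genes tested), and Esrp2 and Ptbp1 were higher in the embryo (24.0%). The median log2 fold change of embryo over adult was -2.21 over the 6 neuronal-type genes and -0.04 over all genes tested. Without embryos 1 and 4 the called members were again these 4 and Esrp2, whereas a test against a fold change of 4 itself left Srrm4 alone called. After a correction for exon length and GC content, described below, Srrm4 and Esrp2 were called, and the median of the 6 neuronal-type genes was -1.60.

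**Figure D1:**
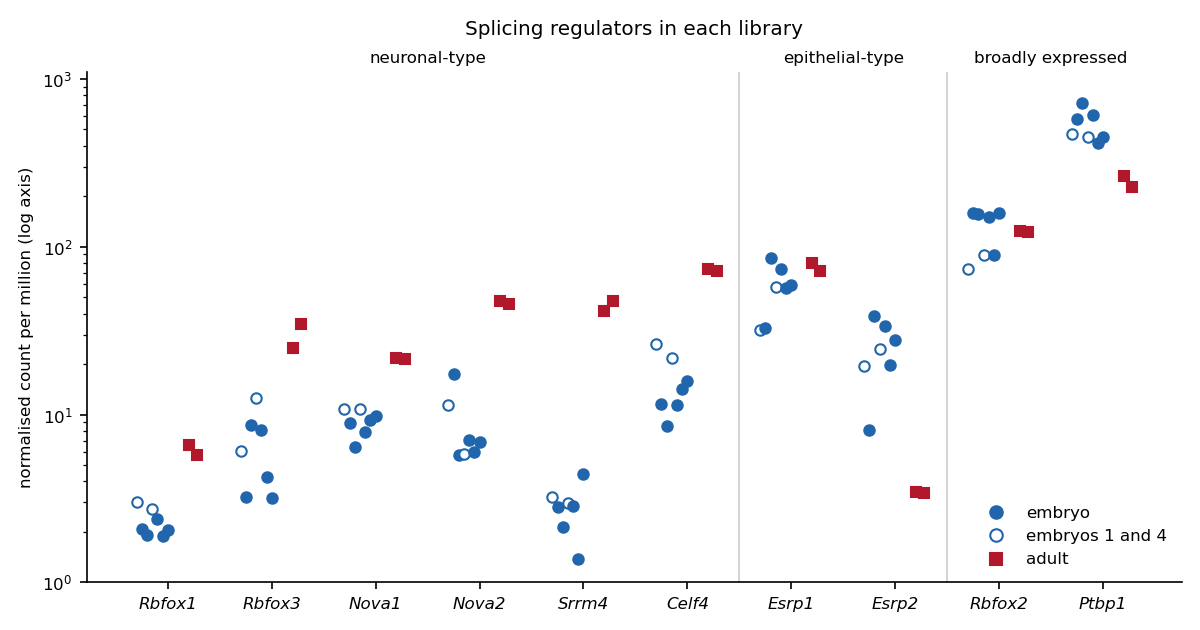
Normalised level in CPM (log axis) of the 10 regulators in each library, with embryos as circles, open for embryos 1 and 4, and adults as squares. Both adults lie above all 7 embryos for the 6 neuronal-type genes and below them for Esrp2 and Ptbp1.

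On the CPM scale the groups did not overlap for 8 of the 10 genes. Both adults were above all 7 embryos for each of the 6 neuronal-type genes, as they were for 32.9% of the genes tested. They were below all embryos for Esrp2 and Ptbp1, as they were for 26.2% of the genes tested, and the groups overlapped for Esrp1 and Rbfox2. Fewer cells of a type and less RNA per cell cannot be told apart in such bulk samples.

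Srrm4 (ENSMUSG00000063919.11, GRCm38 chr5:116439275-116591817, minus strand) encodes the factor that promotes inclusion of neuronal microexons. Its level ran from 1.39 to 4.43 CPM over the embryos, with a median of 2.86 CPM, and the 2 adults had 41.5 and 47.8 CPM. Every embryo was thus far below both adults, and embryo 7 was the highest of the embryos. The log2 fold change of embryo over adult was -3.97 ± 0.33 (SE, adjusted p = 9.19e-07, edgeR), and -3.99 without embryos 1 and 4. This was the largest difference, in absolute size, among the 10 genes.

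Nova2 (ENSMUSG00000030411.16, chr7:18925888-18965319, plus strand) encodes a KH-domain protein that binds YCAY motifs in neuronal pre-mRNAs. It ran from 5.77 to 17.6 CPM over the embryos, with a median of 6.87 CPM, against 47.4 and 45.5 CPM in the adults. Embryo 2 was the highest embryo and embryo 1 the next at 11.4 CPM, while the other 5 lay between 5.77 and 7.10 CPM. Nova2 was called higher in the adult, with a log2 fold change of -2.42 ± 0.37 (SE, adjusted p = 1.43e-04, edgeR), and of -2.40 without embryos 1 and 4. The call was lost after correction for exon length and GC content (-1.83), and in a fit to embryos 1 and 2 and both adults alone (-1.63). An antisense gene shares 31.7% of the exon bases of Nova2, so the strand-specific count was needed to separate the 2 genes.

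Rbfox3 (ENSMUSG00000025576.17, chr11:118489762-118911597, minus strand) encodes the neuronal nuclear antigen NeuN, which binds the GCAUG motif. Its level ran from 3.18 to 12.5 CPM over the embryos, with a median of 6.08 CPM, and was 25.0 and 34.9 CPM in the adults. Embryo 4 was the highest embryo, and the adults differed more from each other than for the other neuronal-type genes. Its log2 fold change was -2.20 ± 0.43 (SE, adjusted p = 8.49e-04, edgeR), and -2.42 without embryos 1 and 4. The call was lost after correction for exon length and GC content (-1.89), and without adult 2, where the log2 fold change was -1.95 and the remaining adult was assumed to vary like the embryos.

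Promoter windows of 300 bases, from 250 before to 50 after a RefSeq start site (GRCm38.p6), were used for 6 of the 10 members, with 2 windows for Rbfox1. Those of the 3 genes just described are printed because these genes were all called higher in the adult. Capitals mark the only match to a searched motif. The window of Srrm4 lies at chr5:116591768-116592067 (minus strand), that of Nova2 at chr7:18925638-18925937 (plus strand), and that of Rbfox3 at chr11:118760992-118761291 (minus strand), at a start site inside the annotated span of the gene.
Srrm4: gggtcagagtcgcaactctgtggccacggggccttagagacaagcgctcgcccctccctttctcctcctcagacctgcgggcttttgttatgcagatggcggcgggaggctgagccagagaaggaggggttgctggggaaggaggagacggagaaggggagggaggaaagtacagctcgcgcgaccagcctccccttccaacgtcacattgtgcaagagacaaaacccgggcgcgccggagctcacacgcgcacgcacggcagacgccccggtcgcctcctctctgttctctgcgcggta
Nova2: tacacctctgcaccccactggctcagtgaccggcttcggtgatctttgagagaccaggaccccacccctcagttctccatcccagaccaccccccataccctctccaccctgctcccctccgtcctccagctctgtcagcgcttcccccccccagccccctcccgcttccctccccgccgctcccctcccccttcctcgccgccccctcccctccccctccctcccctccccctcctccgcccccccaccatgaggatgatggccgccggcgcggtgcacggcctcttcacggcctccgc
Rbfox3: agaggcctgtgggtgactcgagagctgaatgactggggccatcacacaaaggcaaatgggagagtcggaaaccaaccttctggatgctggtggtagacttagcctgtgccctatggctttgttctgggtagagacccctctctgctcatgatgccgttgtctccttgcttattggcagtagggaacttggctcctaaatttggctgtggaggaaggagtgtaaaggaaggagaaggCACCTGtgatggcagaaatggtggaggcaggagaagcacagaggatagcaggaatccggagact

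Both strands of each window were searched for 3 motifs. The 7 windows of members leave out Celf4, which was called higher in the adult, and Rbfox2, Esrp1 and Esrp2. Motifs in the promoters of these genes were not tested. CACCTG, the E-box bound by ZEB and SNAI repressors, occurred in 1 of the 7 windows of members, 14 to 9 bases before the Rbfox3 start, and in 20.2% of all 32851 promoter windows. AACCNGTT, the Grainyhead-like site, and TTCAGCACC, the left part of the RE1 element that REST binds, occurred in none of the 7 windows, and in 2.09% and 0.371% of all windows. Such a match, or its absence from these letters, describes the sequence and not the binding of a factor. The GC content of the printed windows was 64.3% for Srrm4, 71.3% for Nova2 and 53% for Rbfox3.

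Rbfox1 and Nova1 were higher in the adult by less than the 4-fold threshold. Rbfox1 (ENSMUSG00000008658.16, chr16:5885355-7411526, plus strand), a regulator of neuronal excitability genes, ran from 1.88 to 3.0 CPM over the embryos, with a median of 2.09 CPM, and was 6.62 and 5.71 CPM in the adults. Its log2 fold change was -1.43 ± 0.39 (SE, adjusted p = 0.00710, edgeR), and -1.55 without embryos 1 and 4. Without adult 1 the adjusted p was 0.0903. Nova1 (ENSMUSG00000021047.7, chr12:46694517-46818929, minus strand), the paralogue of Nova2, ran from 6.42 to 10.8 CPM over the embryos, with a median of 9.31 CPM, and was 21.7 and 21.5 CPM in the adults. The log2 fold change of Nova1 was -1.24 ± 0.28 (SE, adjusted p = 0.00236, edgeR), and -1.33 without embryos 1 and 4, but its sign turned after correction for exon length and GC content (0.29).

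Celf4 (ENSMUSG00000024268.16, chr18:25477632-25754157, minus strand) encodes a neuronal RNA-binding protein of the CELF family. It had the highest mean per length of the neuronal-type members at both stages, although Nova2 exceeded it in embryo 2 (5.16 against 3.31), and Rbfox3 in embryos 3 (3.40 against 2.28) and 5 (3.73 against 3.57). Its level ran from 8.53 to 26.3 CPM over the embryos, with a median of 14.1 CPM, and was 74.0 and 71.5 CPM in the adults. Embryos 1 and 4 were the highest embryos, at 26.3 and 21.7 CPM. Celf4 was called higher in the adult with a log2 fold change of -2.22 ± 0.33 (SE, adjusted p = 1.15e-04, edgeR), and of -2.54 without embryos 1 and 4. The call was lost after correction for exon length and GC content (-1.36), also without embryos 1 and 4 (-1.87), and in a fit to embryos 1 and 2 and both adults alone (-1.90).

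Genes with long exons tended to be higher in the adult libraries, which bears on these genes because the exon sequence of all 10 was long, from 4340 to 8747 bp. Among the 5962 tested genes in that range of length, the median log2 fold change was -0.41 and 15.8% were called higher in the adult. Among the 11236 shorter genes the median was 0.50 and 11.2% were so called. When each library was corrected for exon length and GC content, 1 of the 6 neuronal-type genes, Srrm4, was still called higher in the adult, where 12.8% of all genes received that call, and Esrp2 was still called higher in the embryo (9.18% of all genes). The corrected log2 fold changes were -3.33 for Srrm4, -1.89 for Rbfox3, -1.83 for Nova2 and -1.36 for Celf4, the latter 3 under the 4-fold threshold with adjusted p of 0.00472, 5.62e-04 and 0.0178 (edgeR). Rbfox1 had a corrected value of -0.92 (adjusted p = 0.0634). The sign of Nova1 turned, to 0.29 (adjusted p = 0.355). In the corrected fit without embryos 1 and 4, Rbfox3 was called again at -2.22. There Rbfox1 was at -1.13 (adjusted p = 0.00888, edgeR), under the 4-fold threshold.

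**Figure D2:**
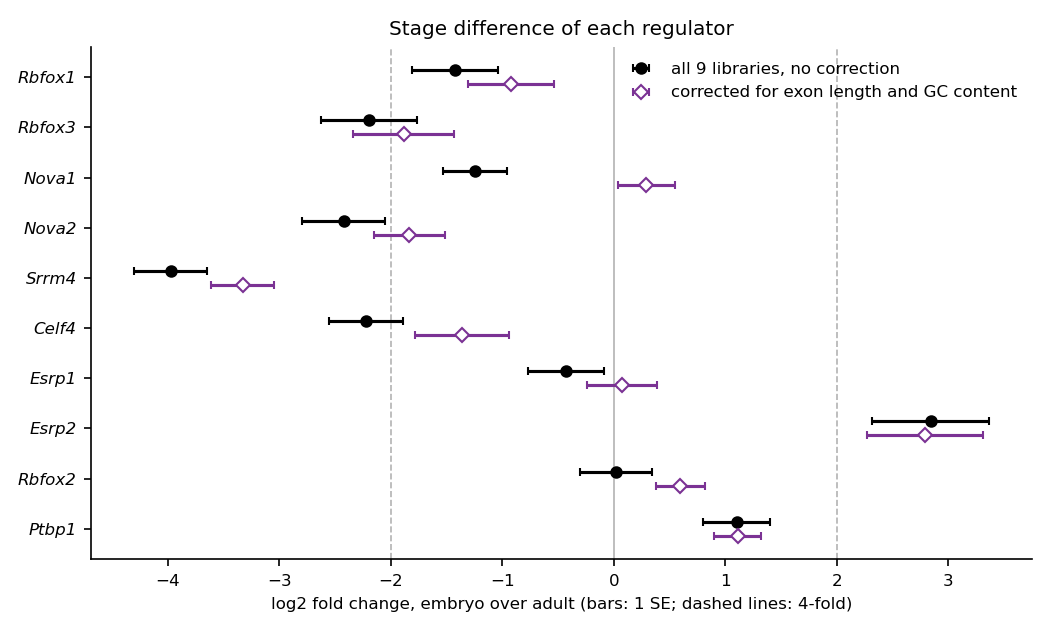
Log2 fold change of embryo over adult for each regulator, with bars of 1 SE, from all 9 libraries as counted (filled circles) and after correction for exon length and GC content (open diamonds). Srrm4 and Esrp2 lie beyond the dashed 4-fold lines in both fits, and Nova1 crosses 0 with the correction.

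The epithelial-type regulators parted from each other. Esrp2 (ENSMUSG00000084128.10, chr8:106130319-106136974, minus strand) ran from 8.11 to 38.6 CPM over the embryos, with a median of 24.7 CPM, and was 3.44 and 3.40 CPM in the adults. Embryo 2 was the lowest embryo and embryo 3 the highest, and all 7 lay above both adults. The log2 fold change was 2.84 ± 0.52 (SE, adjusted p = 5.40e-04, edgeR), 2.94 without embryos 1 and 4, and 3.0 without embryo 2. In a fit to embryos 1 and 2 and both adults alone it was 2.05, and the call was lost when a replicate block was added to that fit (1.92).

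Esrp1 (ENSMUSG00000040728.15, chr4:11331933-11386783, minus strand), which encodes the paralogue with the same type of RNA-recognition motifs, was not called. Its level ran from 32.0 to 85.2 CPM over the embryos, with a median of 57.5 CPM, and was 80.4 and 72.2 CPM in the adults. The adults lay inside the range of the embryos, of which embryos 1 and 2 were the lowest, at 32.0 and 32.8 CPM. The log2 fold change was -0.43 ± 0.34 (SE, adjusted p = 0.303, edgeR), -0.28 without embryos 1 and 4, and 0.08 after correction for exon length and GC content. In a fit to embryos 1 and 2, the lowest, and both adults alone it was -1.19 (adjusted p = 0.0178, edgeR). The difference between Esrp1 and Esrp2 in their stage effect was not tested.

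The broadly expressed regulators had the highest means per length of the 10 at both stages, although Esrp1 exceeded Rbfox2 in the adults when the longest transcript served as length (mean log2 ratio 0.14). Ptbp1 (ENSMUSG00000006498.16, chr10:79854427-79864771, plus strand) ran from 416 to 716 CPM over the embryos, with a median of 469 CPM, and was 264 and 226 CPM in the adults. All embryos lay above both adults. The difference on the log2 scale, embryo over adult, was 1.10 ± 0.30 (SE, adjusted p = 0.00716, edgeR), under the 4-fold threshold, and 1.20 without embryos 1 and 4. Its adjusted p was 0.0544 without adult 1 and 0.106 without adult 2.

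Rbfox2 (ENSMUSG00000033565.18, chr15:77078990-77307004, minus strand), the family member found in epithelial, mesenchymal and muscle cells as well as neurons, ran from 73.8 to 158 CPM over the embryos, with a median of 150 CPM. It was at 125 and 123 CPM in the adults. The embryos fell into a lower set (embryos 1, 4 and 6, at 73.8 to 89.9 CPM) and a higher set (150 to 158 CPM), with the adults between. The log2 fold change of 0.02 ± 0.33 (SE, adjusted p = 0.966, edgeR) was 0.24 without embryos 1 and 4. It was 0.60 after correction for exon length and GC content (adjusted p = 0.0397), and its sign changed between other settings.

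Levels of different genes were compared per length, as counts divided by exon length and scaled to the same total in each library, as in TPM. On this scale the order in the embryos was Ptbp1 (mean 244 ± 104, SD, n = 7), Rbfox2 (35.7 ± 20.1), Esrp1 (19.9 ± 10.6), Esrp2 (12.5 ± 7.68) and then the 6 neuronal-type genes, from Celf4 (3.6 ± 1.14) to Srrm4 (0.725 ± 0.450). Only the ranges of Ptbp1 and Rbfox2 were separate among neighbours in this order, and Nova2, Rbfox3 and Nova1 were almost level, at 2.18 to 2.23. In the adults Ptbp1 (146 ± 17.0, SD, n = 2), Rbfox2 (43.0 ± 0.840) and Esrp1 (34.2 ± 2.85) came first again, but Celf4 (24.0 ± 0.756), Nova2 (15.7 ± 0.579), Srrm4 (14.5 ± 1.36) and Rbfox3 (14.5 ± 3.28) followed, and Esrp2 came last (2.23 ± 0.0345). The ranges of Nova2, Srrm4 and Rbfox3 overlapped in the adults. Srrm4 thus had the lowest mean of the 10 genes in the embryos and was level with Rbfox3 in the adults. For 2 genes this scale changed how the stages compare, for Ptbp1 only with embryos 1 and 4 included. The adults overlapped the embryos for Ptbp1 (158 and 134 against 111 to 348) and lay above all of them for Esrp1 (36.2 and 32.2 against 6.62 to 31.5). Without embryos 1 and 4 the lowest Ptbp1 level in an embryo was 168, above both adults.

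The summed level per length of the 6 neuronal-type genes ran from 8.87 to 17.0 over the embryos, with a median of 10.5, and was 77.8 and 81.7 in the adults. That of the 2 epithelial-type genes ran from 12.4 to 52.5, with a median of 26.0, and was 38.5 and 34.4 in the adults, inside the range of the embryos. Embryos 3, 5 and 7 were above both adults, at 51.3, 52.5 and 50.3. Embryos 1, 2, 4 and 6 were below both, at 12.4, 17.4, 17.4 and 26.0. Without embryos 1 and 4 the median was that of embryo 7, 50.3, above both adults. On the CPM scale embryos 4 and 6 (82.2 and 76.4) lay between the adults (83.8 and 75.6), and the other embryos kept their side. The level per length is a share of a fixed total. Erythroid genes took 323270 and 364915 of it in embryos 1 and 4, and pituitary markers 388341 and 413100 in the adults. The part of these genes in the order of the sums was not tested. Per length, the log2 ratio of the neuronal-type to the epithelial-type sum was below 0 in all 7 embryos, from -2.29 to -0.29. It was above 0 in both adults, at 1.01 and 1.25. On the CPM scale this ratio was above 0 in embryos 1 and 2 also, with a highest embryo value of 0.24, so the sign in single embryos depended on the scale.

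Shares of paralogues in their families are given here per length and without a test. In the Esrp family, Esrp1 made up 53.2% to 73.6% in the embryos, against 94.1% and 93.6% in the adults. Rbfox2 made up 79.8% to 95.0% of the Rbfox family in the embryos (90.5% to 95.0% without embryos 1 and 4), and 72.5% and 67.4% in the adults, while Rbfox3 held 2.68% to 15.7% in the embryos (2.68% to 7.0% without embryos 1 and 4), against 20.4% and 26.8% in the adults. Rbfox1 overlapped between stages, at 2.04% to 6.32% and at 7.12% and 5.81%, but not without embryos 1 and 4, where its highest share in an embryo was 3.50%. Nova2 made up 36.0% to 67.5% of the Nova family in the embryos, highest in embryo 2, and 69.5% and 68.9% in the adults.

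In the Ptbp family, Ptbp1 took 84.9% to 95.7% in the embryos, against 70.5% and 63.0% in the adults. Ptbp3 held 1.39% to 6.40% in the embryos, against 24.1% and 31.0% in the adults. The share of the neuronal paralogue Ptbp2 overlapped between stages, at 2.90% to 8.70% and at 5.36% and 6.01%. Its means of 5.07% in the embryos and 5.68% in the adults moved to 7.55% and 9.03% with the longest transcript as length, and to 8.19% and 7.85%, in the other order, with unstranded counts. The log2 ratio of Ptbp1 to Ptbp2 ran from 3.29 to 5.04 over the embryos and was 3.72 and 3.39 in the adults, so the groups overlapped. The log2 ratio of Esrp1 to Rbfox2 overlapped too, at -1.90 to -0.26 in the embryos, lowest in embryo 2, and at -0.26 and -0.40 in the adults. In the Celf family, Celf1 held 48.6% to 62.7% in the embryos, against 22.6% and 22.8% in the adults, whereas Celf3 held 6.52% to 24.7% in the embryos (13.9% to 24.7% without embryos 1 and 4), against 39.6% and 39.8% in the adults. Celf4 overlapped between stages in its share, at 4.46% to 11.9% and at 12.2% and 11.3%, but not without embryos 1 and 4, where its highest share in an embryo was 8.66%.

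**Figure D3:**
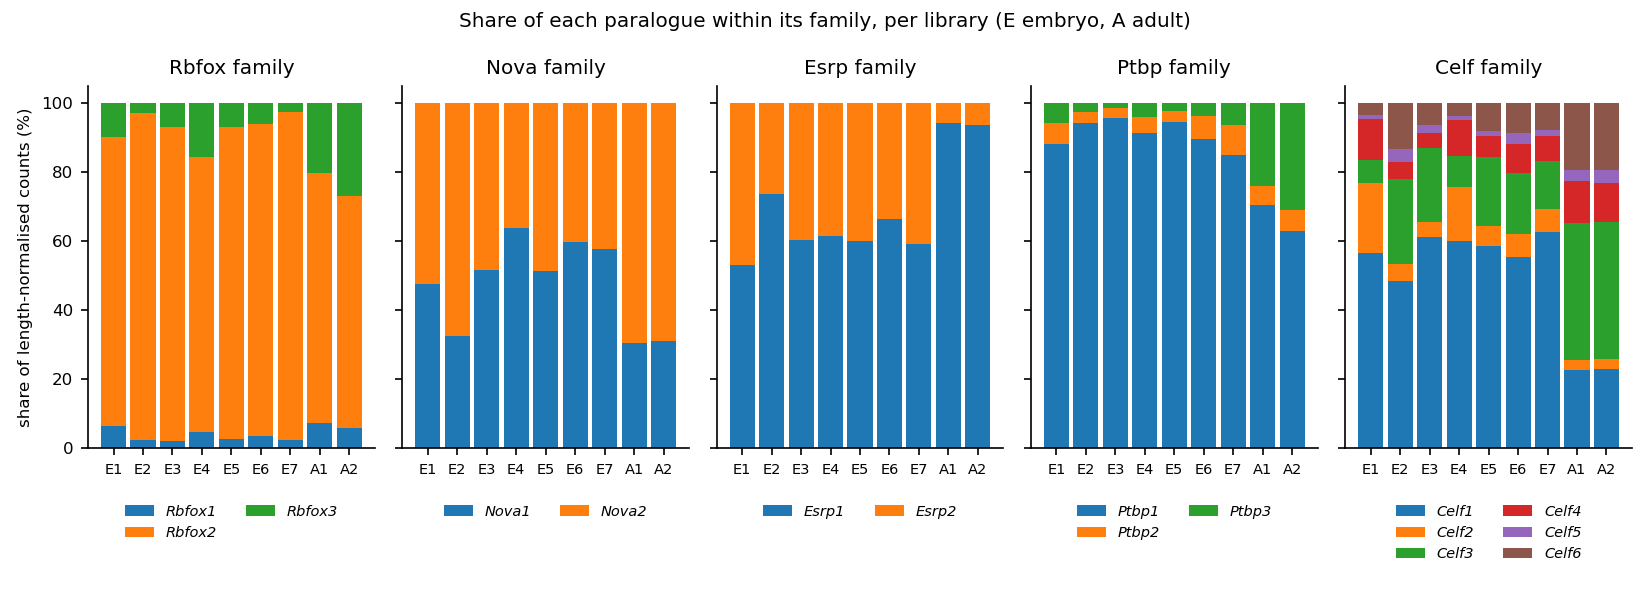
Share of the length-normalised counts of each family held by each paralogue, in percent, for the 7 embryos (E1 to E7) and 2 adults (A1 and A2). Esrp2 takes 26.4% to 46.8% of its family in the embryos, against 5.86% and 6.41% in the adults.

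Other splicing genes, and markers further below, were counted in lists, to be read beside the 14.6% of all genes tested that were called higher in the adult and the 11.3% called higher in the embryo (12.8% and 9.18% after correction for exon length and GC content). At an adjusted p below 0.05 alone these shares of all genes were 27.4% and 24.0%, and at an unadjusted p below 0.05 they were 30.4% and 27.4%. Of 11 further neuronal-type regulators, 5 were called higher in the adult and none in the embryo (edgeR, and DESeq2 alike), where 1 had an unadjusted p below 0.05, with a median log2 fold change of -1.69. They were Srrm3, the paralogue of Srrm4 (-3.41, adjusted p = 1.61e-05, edgeR), Celf6 (-2.98), Celf3 (-2.90) and, named after their values were seen, Celf5 (-2.35) and Khdrbs2 (-2.11). Celf3 was the most abundant of these per length in the adults, at 153 and 161 CPM against 9.23 to 37.8 CPM in the embryos. Khdrbs3, which was the most abundant in the embryos, had a log2 fold change of 1.32, and Msi1 one of -0.10. After correction for exon length and GC content, Srrm3, Celf3 and Celf6 were still called higher in the adult, and Ptbp2 was called higher in the embryo at 2.04, against 0.42 without the correction.

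Of 16 regulators with other tissue biases, 4 were called higher in the adult (14.6% of all genes) and 1 in the embryo (11.3%), with a median of -0.29. The 4 were Rbm20, a regulator of titin splicing in the heart (-3.63), the muscleblind genes Mbnl2 (-3.01) and Mbnl1 (-2.50), and Ptbp3 (-2.32). Rbm38 was the gene called higher in the embryo (2.16), but not without embryos 1 and 4, its highest libraries, nor after correction for exon length and GC content (1.84). With the correction Rbm20 alone of the 4 was still called, 3 other genes were called higher in the embryo, and the median turned to 0.73. The most abundant of this list per length in the embryos, Khdrbs1, Celf1 and Elavl1, had log2 fold changes of -0.23, -0.26 and 0.67 and were not called. In the adults Ptbp3 came second to Khdrbs1.

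Genes of the general splicing machinery made up 3 lists. None of 13 SR proteins and none of 24 hnRNP proteins was called in either direction by edgeR or DESeq2. At an adjusted p below 0.05 alone, 5 SR proteins and 7 hnRNP proteins were higher in the embryo (24.0% of all genes), and 2 and 3 were higher in the adult (27.4%). At an unadjusted p below 0.05 these counts were 5 and 8 in the embryo (27.4% of all genes), and 2 and 4 in the adult (30.4%). The medians as counted were 0.39 and -0.04. With the correction for exon length and GC content 2 SR proteins and 2 hnRNP proteins were called higher in the embryo, and the medians were 1.0 and 0.86. Of 51 core spliceosome genes, 11 were called higher in the embryo and none in the adult (edgeR, and DESeq2 alike), where 3 had an unadjusted p below 0.05, with a median of 0.96, led by the Sm protein genes Snrpe (3.72), Snrpg (3.65) and Snrpd2 (3.24). Snrpe ran from 333 to 929 CPM in the embryos and was 45.5 and 42.1 CPM in the adults. With the correction 13 core genes were called higher in the embryo, and without embryos 1 and 4 10 were.

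**Figure D4:**
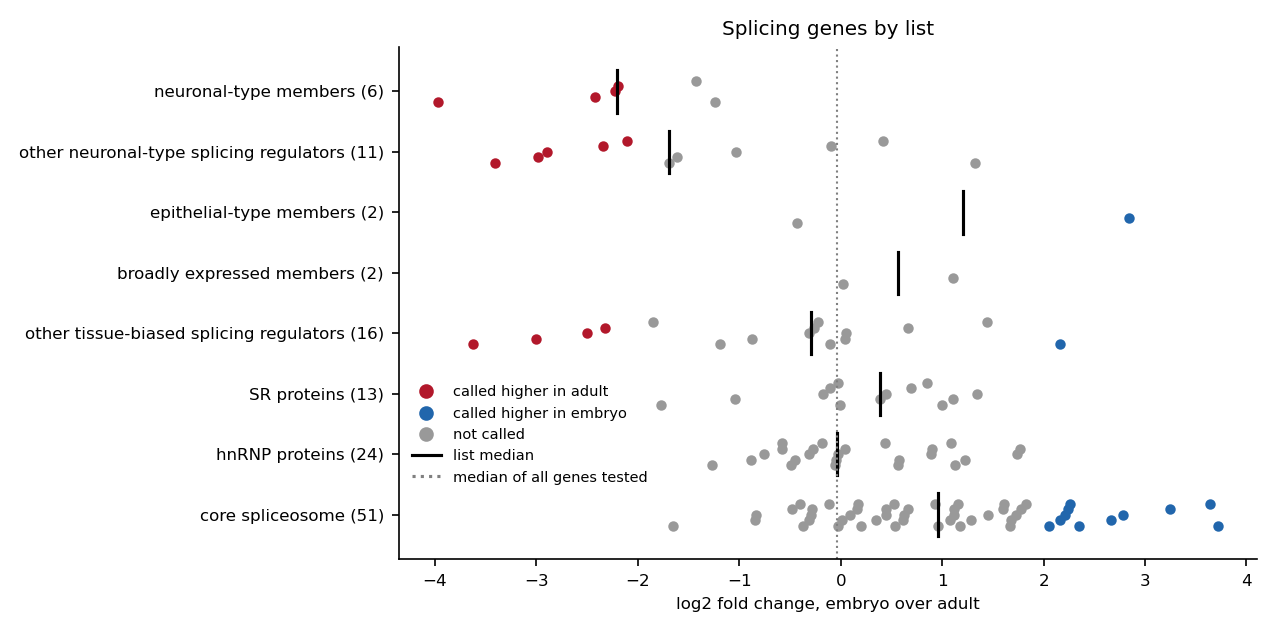
Log2 fold change of embryo over adult for each tested gene of 8 lists of splicing genes, with the number of genes in brackets, list medians as bars and the median of all genes tested as a dotted line. The lists of neuronal-type regulators lie to the left, at medians of -2.21 and -1.69 as counted (-1.60 and -0.65 after correction for exon length and GC content), and the core spliceosome to the right, at 0.96 (0.94).

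REST represses neuronal genes outside neurons, Srrm4 among them. None of 12 genes for REST and its cofactors was called in either direction by edgeR or DESeq2, while 6 were higher in the embryo and 3 in the adult at an adjusted, and at an unadjusted, p below 0.05, with a median of 0.76. Rest itself, named after its values were seen, ran from 8.49 to 24.5 CPM in the embryos and had a log2 fold change of 1.22 (adjusted p = 0.0208), or of 2.01 and a call after correction for exon length and GC content. The most abundant genes of the list per length in the embryos, Hdac1, Ehmt2 and Ctdsp1, had log2 fold changes of 1.5, 0.92 and 1.22, and Ehmt2 led in the adults.

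Genes with exons known to be controlled by these regulators were followed at the level of the whole gene only. Among 7 such genes for Rbfox, 4 were called higher in the adult, with a median of -3.37. They include the synaptic gene Snap25 (-5.07), whereas Nrcam (-0.95) and Tsc2 (-0.55) were not called. Among 5 genes for Nova, Glra2 was called higher in the adult (-4.11) and the median was -1.10. Gphn (-1.51) and Agrn (0.31) were not called. Among 5 genes for Srrm4, Daam1 was called higher in the adult (-2.34), the median was -1.11, and Mef2d (-1.44) and Kdm1a (-0.18) were not called. After the correction 3 of the 7 Rbfox genes and 1 Nova gene were called higher in the adult and 1 Srrm4 gene in the embryo, and the medians were -1.74, -0.14 and -0.08. The Srrm4 gene was Rest, which the list of REST and its cofactors counts too. Snap25 is counted again among the neuron markers below.

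None of 5 genes with Esrp-controlled exons was called by edgeR or DESeq2, and their median was -0.92. Fgfr2, whose epithelial exon depends on Esrp1 and Esrp2, ran from 26.4 to 67.6 CPM in the embryos and was 24.7 and 23.5 CPM in the adults (log2 fold change 0.78, adjusted p = 0.0808, edgeR). Ctnnd1 (0.03) and Arhgef11 (-1.20) were not called either. None of 5 genes with exons controlled by Ptbp1 was called by edgeR or DESeq2, with a median of 0.89. The most abundant of them per length, Pkm, Flna and Src, had log2 fold changes of 1.48, 1.04 and 0.89. At an adjusted p below 0.05 alone, 2 Esrp genes were higher in the adult, and among the Ptbp1 genes 3 were higher in the embryo and 1 in the adult. At an unadjusted p below 0.05, 1 Esrp gene was higher in the embryo and 3 in the adult, and the counts of the Ptbp1 genes were the same. After correction for exon length and GC content the median of the Esrp genes turned to 0.67, with Fgfr2 at 1.68 (adjusted p = 8.33e-04, edgeR) and none called, and that of the Ptbp1 genes was 1.64, with 1 called higher in the embryo. That gene was Ptbp2, which is counted among the further neuronal-type regulators too.

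Markers of cell types moved with stage in the same libraries. Of 14 genes of the epithelial programme, 4 were called higher in the embryo and none in the adult (edgeR, and DESeq2 alike), where 2 had an unadjusted p below 0.05. Their summed level ran from 571 to 1893 CPM over the embryos, with a median of 1213 CPM, and was 755 and 713 CPM in the adults, with Krt18 the most abundant in the embryos and Epcam in the adults. Epcam, which defines epithelial cells, was at 96.3 to 298 CPM in the embryos and at 417 and 416 CPM in the adults and was not called (log2 fold change -0.87), whereas Krt18 (2.27), Cldn4 (3.03) and Ovol1 (7.32) were called. After correction for exon length and GC content 3 of the 14 genes were called higher in the embryo, Krt18 lost its call (1.18), and Epcam was at -1.54 (adjusted p = 0.00290, edgeR). Embryo 2, the lowest for Esrp2, was the lowest of the embryos for this sum, and embryo 3, the highest for Esrp2, was the highest. The part of epithelial cell content in the levels of Esrp1 and Esrp2 was not tested.

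Of 13 mesenchymal markers, 7 were called higher in the embryo (11.3% of all genes) and 1 in the adult (14.6%), and after correction for exon length and GC content 6 were called higher in the embryo and the adult call was lost. Their sum ran from 1148 to 2767 CPM in the embryos, with a median of 1911 CPM, and was 456 and 380 CPM in the adults, with Vim the most abundant in the embryos and Cdh2 in the adults. Vim (3.70), Twist1 (4.26) and Fn1 (3.75) were called higher in the embryo. Of 8 genes that mark neural progenitors and pituicytes, 4 were called higher in the embryo and 1 in the adult, and their sum was 162 to 275 CPM in the embryos, with a median of 177 CPM, and 89.1 and 107.6 CPM in the adults. Fabp7 was the most abundant in the embryos and Slc1a3 in the adults. Rax (4.83) and Nkx2-1 (4.04), which mark the ventral hypothalamus and the infundibulum, were called higher in the embryo, and Gfap (-3.99) in the adult.

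Of 13 neuron markers, 5 were called higher in the adult and none in the embryo (edgeR, and DESeq2 alike), where 1 had an unadjusted p below 0.05. Their sum was 328 to 499 CPM in the embryos, with a median of 411 CPM, and 1092 and 1112 CPM in the adults, with Nefl the most abundant in the embryos and Tubb3 in the adults. Gad2 was at no more than 0.507 CPM in any embryo, with 0 counts in 4 of them, and at 22.9 and 29.4 CPM in the adults. The vesicle gene Snap25 (-5.07) and Slc17a6 (-6.05) were called higher in the adult, whereas the general neuronal genes Tubb3 (0.41), Gap43 (0.45) and Nefl (1.47) were not called. Of 8 secretory granule genes, 7 were called higher in the adult. They summed to 743 to 1721 CPM in the embryos, with a median of 1183 CPM, and to 10317 and 13067 CPM in the adults, with Scg2 the most abundant at both stages, and Pcsk2 (-8.01), Chgb (-6.10) and Scg3 (-4.94) showed the largest differences. None of the markers named in these lists was at 0 in all libraries of a stage. The part of secretory or neuronal cells in the adult levels of the neuronal-type regulators was not tested.

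Endothelial and macrophage markers gave no call from all 9 libraries by edgeR or DESeq2, while without embryos 1 and 4 edgeR called 1 endothelial marker higher in the embryo. The 4 endothelial markers, led by Cdh5, summed to 84.4 to 322 CPM in the embryos, with a median of 132 CPM, and to 99.4 and 59.5 CPM in the adults, and 2 of them were higher in the embryo at an adjusted, and at an unadjusted, p below 0.05. The 5 macrophage markers, led by C1qb in the embryos and C1qa in the adults, summed to 108 to 258 CPM in the embryos, with a median of 122 CPM, and to 78.3 and 112.9 CPM in the adults, and 2 of them passed these 2 thresholds, higher in the embryo. Embryo 2 was the highest for both sums, as it was for Nova2. The part of these cells in the Nova2 level of embryo 2 was not tested.

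**Figure D5:**
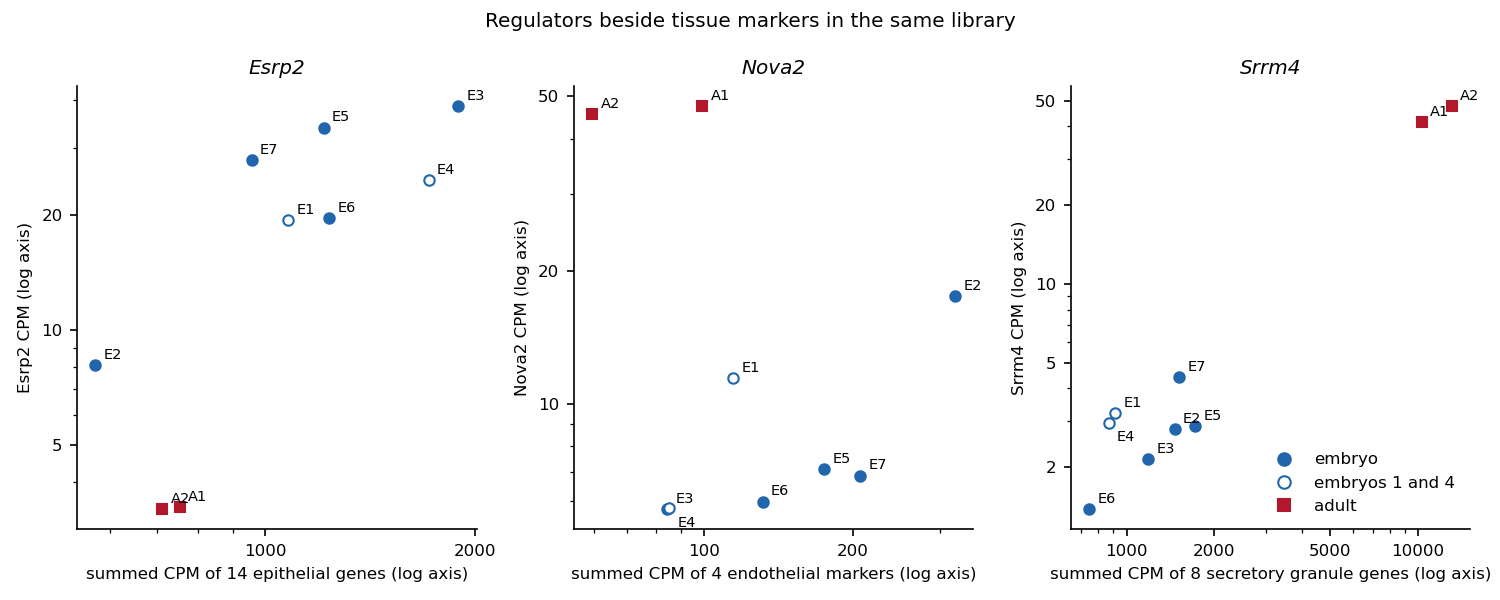
Levels in CPM of Esrp2, Nova2 and Srrm4 in each library (log axes) against the summed CPM of 14 epithelial genes, 4 endothelial markers and 8 secretory granule genes, pairs chosen after the values were seen. Embryo 2 (E2) is lowest of the embryos for Esrp2 and highest for Nova2, and both adults are highest for Srrm4 and for the granule genes.

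Likeness over the 7 embryos was described for each member by the Pearson correlation of log2 CPM with the 13186 genes that had a mean embryo count of at least 50. The points share their libraries, so that depth, blood content and tissue composition enter every value, and with 7 points and so many genes high values occur for any gene. Among the 3 most alike genes of Esrp2 were Ripk4 (r = 0.976) and Osbpl3 (0.968). For Esrp1 the 3 genes were Kcnj11 (0.984), Ovol1 (0.977) and P2rx2 (0.972). Nova2 was closest to C1qc (0.993), Adgrb2 (0.983) and Col6a2 (0.974), 3 genes that like Nova2 were high in embryo 2.

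Among the other members, Srrm4 was most alike to Spop (0.984), Nrg1 (0.975) and Iqgap1 (0.969), Celf4 to Larp7 (0.998), Tmem245 (0.994) and Tent5a (0.992), and Nova1 to Pde3a (0.993), Rictor (0.987) and Med13 (0.983). For Rbfox1 the genes were Gm45768 (0.987), Chic2 (0.980) and Tfap2b (0.976), and for Rbfox3 Gm15351 (0.953), Eif3s6-ps2 (0.951) and Ifitm10 (0.951). Ptbp1 was followed by Ap1b1 (0.993), Gas8 (0.992) and Usp30 (0.989), and Rbfox2 by Stx2 (0.992), Ap2b1 (0.991) and D430019H16Rik (0.989). Without embryos 1 and 4, over 5 embryos, these pairs had r of at least 0.888.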

How the data were processed

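Poly(A) RNA of single animals was sequenced as 75 bp read pairs from directional libraries. The authors trimmed the reads with Trimmomatic 0.39, aligned them to mm10 with STAR 2.7.5b and counted them over the genes of Ensembl release 96, as the submitters' processing notes and the methods of the study state. The deposited files give raw counts of read pairs per gene, unstranded and for each strand. The count of the strand that the kit marks was used. All 55450 gene identifiers were matched to symbols, positions (GRCm38) and exon lengths in the GENCODE M21 annotation. Pairs without an unambiguous single gene (unmapped, multimapping, ambiguous or off any feature) stayed out of library sizes, which left 59.7% to 84.0% of all pairs.

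Counts were normalised with TMM in edgeR 4.0.16 (R 4.3.3). The quasi-likelihood test of edgeR compared the stages, without other covariates, for the 19371 genes whose mean count reached 5, and p-values were adjusted over all of them by the Benjamini–Hochberg procedure. A gene was called at an adjusted p below 0.05 and a fold change above 4, the thresholds of the study. The procedure was also run on simulated counts. These had the same dispersion for every gene and no effect of blood or exon length, so they do not test for such effects. Alternatives included DESeq2 1.42.0, other normalisations and filters, a correction for exon length and GC content by splines with 4 degrees of freedom, and leaving out libraries.

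Named genes are the 10 members, at most 6 genes of each list (the 3 most abundant per length and the 3 with the largest difference among those called) and the 3 genes most alike to each member over the embryos, with exceptions marked in the text. The members and lists were chosen with earlier results of these data known, and are described by counts and medians beside all genes tested. Promoter sequences are from RefSeq.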

Additional observations from a re-analysis of the deposited data

Results flagged for a closer look

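One measurement outside the counts used stood above its background. Read pairs on the strand opposite to Esrp2 made up 11.4% of both strands at the embryo median and 36.3% at the adult median, from 31 to 105 such counts per embryo, and from 72 and 77 per adult. Over all genes the other strand held 4.38% to 5.17%. Exons of Nfatc3 and 1810019D21Rik, which lie on the opposite strand, share 7.79% of the exon bases of Esrp2. With unstranded counts, which lose read pairs where genes overlap on both strands, the log2 fold change of Esrp2 was 2.77. Its call was unchanged. The part of the overlapping genes in these counts was not tested.

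The summed level of the 5 macrophage markers had one embryo far from the others. Embryo 2 was at 258 CPM and the next embryo at 171 CPM, a gap of 0.579 of the whole range of the embryos. It was the only such case among 48 quantities examined over the embryos. Chance alone gives such a gap in about 1 of 20 quantities, so 1 case among 48 is no more than chance gives. The adults, being 2, could not be examined in this way.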

How the results depend on the processing

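Srrm4 was called higher in the adult under all 23 alternatives, with log2 fold changes from -4.17 to -3.33. Esrp2 was positive in all 23, from 1.92 to 3.0, and lost its call in 2. Thresholds moved the counts most. With fold changes above 2, 4155 genes were called higher in the embryo and 4805 in the adult, with 2 members and 6 members among them. Without a fold threshold, a setting chosen after seeing the data, these were 4650 and 5298, again with 2 and 6 members. Tested against a fold change of 4 itself they were 613 and 1131, with 0 members and 1 member, because the test asks for more than an estimate past 4.

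Correction for exon length and GC content left 1 neuronal-type member called, and 2 in the same correction without embryos 1 and 4, also chosen after seeing the data. In these 2 fits Nova1 turned to 0.29 and 0.30, and Esrp1 to 0.077 and 0.11. The cause was not tested.

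Rbfox2, close to 0, was negative with DESeq2 (-0.021), DESeq2 size factors (-0.021) and library size alone (-0.15), the last of which shifted the median of all genes from -0.04 to -0.26. Leaving out single animals gave -0.042 to 0.16 for Rbfox2, and 1482 to 2362 and 2201 to 2958 genes called higher in the embryo and in the adult. With 1 adult left, that adult was assumed to vary like the embryos. Rbfox3 lost its call without adult 2 (-1.95).

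The replicate numbers do not pair the animals, which differ between stages. The deviations of same-numbered libraries from their stage means had correlations of 0.0444 and -0.0128. The deviations of the 2 adults are mirror images of each other. A replicate block, which needs replicates 1 and 2 alone and so leaves out 5 embryos, gave 3 members called higher in the adult, without Nova2 (-1.66), and 0 in the embryo (Esrp2 1.92), and a log2 fold change of -0.15 for Rbfox2. The same 4 libraries without a block, a setting chosen after seeing the data, gave 2 members in the adult, without Nova2 (-1.63) and Celf4 (-1.90), 1 in the embryo (Esrp2 2.05), and -0.050 for Rbfox2. With and without the block, Esrp1 was -1.19 (adjusted p 0.0192 and 0.0178), the adjusted p of Rbfox1 was 0.203 and 0.102, and that of Nova1 was 0.0714 and 0.0438.

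With the longest transcript as length, adult means were 61.0% for Rbfox2, 64.8% for Nova2, 95.3% for Esrp1 and 16.7% for Celf4 of their families, the embryo mean of Celf4 was 11.2%, and the adult log2 ratios were 2.95 (Ptbp1 to Ptbp2) and 0.14 (Esrp1 to Rbfox2), the latter of the other sign. With unstranded counts, which lose read pairs where genes overlap on both strands, Nova2 was 58.2% and Esrp1 94.3% in the adults, Ptbp1 was 86.0% in the embryos and 54.9% in the adults, and the log2 ratio of Ptbp1 to Ptbp2 was 3.50 and 2.80. The share of Ptbp2 was 7.55% in the embryos and 9.03% in the adults by longest transcript, and 8.19% and 7.85% unstranded, against 5.07% and 5.68%, and that of Ptbp3 in the embryos was 5.85% unstranded, against 3.70%. The cause of the other shifts was not tested. Depth limits Srrm4 and Rbfox1 most, with 28 to 138 and 38 to 66 counts in the embryos.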
